A study of Arabidopsis thaliana with 17 samples.

Results

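The suspensor of Arabidopsis thaliana seeds at the globular embryo stage was compared with the micropylar endosperm, the endosperm region that surrounds it. The comparison used 4 of the 17 arrays of the series, 2 of suspensor and 2 of micropylar endosperm, chosen by the compartment that the labels name. All plants had the genotype Ws-0, and the labels name no transgene, mutation or treatment. Seeds came from siliques of 1.1 to 1.4 cm on plants aged 38 to 46 days that grew in continuous light, and held embryos of 24 to 32 µm in diameter. Sections of 5 or 7 µm were cut from paraffin blocks, each compartment was cut out by laser, and 2 to 4 ng of its RNA was amplified and hybridised to Affymetrix ATH1 arrays, on which a gene is read by a set of short probes (a probe set). The other arrays hold embryo proper, peripheral endosperm, chalazal seed coat, general seed coat and whole seed, with 2 arrays each, and chalazal endosperm, with 3. Samples are regions cut from sections, not sorted cells, and the number of seeds behind each is not given in the sources used here. The labels call the arrays of a group biological replicates but tie none of them to a plant, so the p-values measure the spread between these samples.

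The suspensor is the embryonic stalk that anchors the embryo proper at the micropylar end of the seed and passes nutrients and hormones to it. It descends from the basal daughter cell of the zygote and is removed by programmed cell death later in seed development. The micropylar endosperm arises from the other product of double fertilisation, lies against the suspensor and the embryo, and at the globular stage is part of an endosperm that is syncytial or about to form cell walls. The comparison therefore sets neighbouring tissues of different origin side by side.

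Intensities are on a linear scale set by the authors, with a mean of 499.712 to 499.832 on every array once the highest and lowest 2% were left out. Array medians ran from 106 to 130.8 on the 4 arrays. The background limit of an array was the top reading of its 27 controls for bacterial transcripts not added to the sample. It was 84.5 and 57.5 on the suspensor arrays and 144 and 143 on the micropylar ones. Above it lay 58.4% and 61.5% of probe sets in suspensor, and 47.6% and 44.5% in micropylar endosperm. Arrays of a group correlated at 0.864 to 0.939 across probe sets, and a suspensor with a micropylar endosperm array at 0.766 to 0.826. The mean correlation of suspensor was 0.797 with micropylar endosperm and 0.801 with embryo proper. That of micropylar endosperm with peripheral endosperm was 0.777. For the GAPDH control, signal at the 3' end divided by that at the 5' end rises where RNA or amplified product is short. This ratio was 7.1 and 5.45 in suspensor and 22.7 and 10.9 in micropylar endosperm, without overlap between the groups. Its part in the differences below was not tested.

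Of 22746 probe sets tested, 1613 (7.09%) were higher and 861 (3.79%) were lower in suspensor than in micropylar endosperm, at an adjusted p under 0.05 from limma on log2(intensity + 31). These are the calls meant below. The 2 suspensor arrays did not overlap the 2 micropylar arrays for all 1613 higher probe sets and for 859 of the lower ones. Called differences and overlap rest on the same 4 arrays, so these counts are a description and lend the calls no further support. The share over all probe sets is not given. The higher calls were also larger. The median call was 2.63 log2 units for the higher probe sets and -2.01 for the lower ones, 575 of the former and 34 of the latter passed 3 log2 units, and 205 and 0 passed 4. For 732 of the higher probe sets both micropylar arrays were under their background limit, while for 146 of the lower ones both suspensor arrays were. The limits were higher on the micropylar arrays, and the part of this in the 2 counts was not tested. In such mixed pieces of tissue, fewer cells of a type and less RNA per cell cannot be told apart. Fitted log2 differences against arrays under the limit depend on the offset of 31 and are no bounds, so for single genes of this kind the fold bound is given.

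The counts depended on single arrays. Without suspensor replicate 1 they were 882 higher and 315 lower, without suspensor replicate 2 they were 843 and 198, and without micropylar endosperm replicate 1 they were 1063 and 298. Without micropylar endosperm replicate 2 they were 1508 and 894. Scaling the arrays to a common 75th percentile gave 1328 higher and 1356 lower calls, so that 49.5% of calls were higher in place of 65.2%. The median log2 difference of all probe sets was then -0.32 in place of -0.09.

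**Figure D1:**
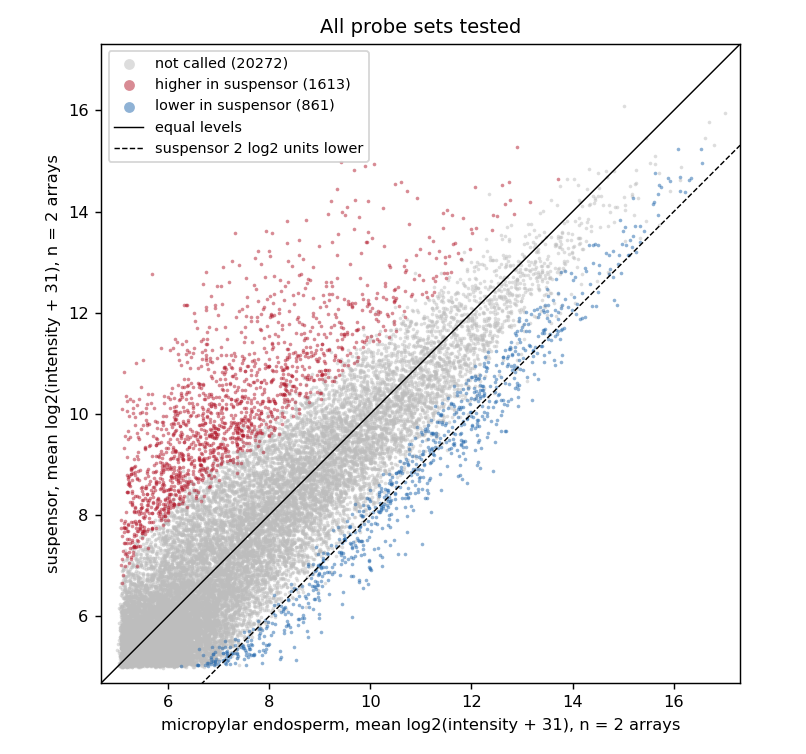
Mean log2(intensity + 31) of the 2 suspensor arrays (vertical) against that of the 2 micropylar endosperm arrays (horizontal) for all 22746 probe sets, with the 1613 called higher in red, the 861 called lower in blue and equal levels on the solid line. Red points spread far above the line, while blue points keep close to the dashed line that marks a suspensor level 2 log2 units lower.

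Genes bright in suspensor were dim in micropylar endosperm more often than the converse, though most were not. Of 3570 probe sets with a mean above 1000 in suspensor, 345 (9.66%) were below 10% of that level in micropylar endosperm. Of 3326 probe sets with a mean above 1000 in micropylar endosperm, only 14 (0.421%) were below 10% of that level in suspensor. The same counts between embryo proper and peripheral endosperm, which share no array with these groups, were 321 of 3385 (9.48%) and, the other way, 304 of 3384 (8.98%). Between embryo proper and suspensor, 142 of 3385 (4.19%) probe sets bright in embryo proper were below 10% in suspensor. The share of 0.421% was thus the lowest of the 5 given here. No test was made of these shares. Medians went the other way. Probe sets above 1000 in suspensor read 87.7% of that level in micropylar endosperm at the median. Those above 1000 in micropylar endosperm read 66.3% of that level in suspensor.

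Genes that marked the micropylar endosperm against every compartment other than suspensor were also read in suspensor at a sizeable share of their micropylar level. A set of 109 probe sets had a micropylar mean above 1000 and at least 10 times that of embryo proper, peripheral endosperm, chalazal endosperm and both seed coats. Their suspensor level was 24.2% of the micropylar level at the median, with quartiles of 18.5% and 30.1%, and 105 of the 109 lay above 10%. The medians of the separate suspensor arrays were 26.4% and 22.2%, so both arrays carried this signal. In embryo proper the median of the same probe sets was 2.56%. The suspensor therefore read most of these genes at a similar fraction of the level in its neighbour. The part of micropylar RNA in the captured suspensor pieces was not tested. The converse set of 89 probe sets led by suspensor had a micropylar level of 7.09% at the median, with quartiles of 3.57% and 139%, since 38 of them were above 10% there. Both sets were chosen with these arrays and are given as descriptions.

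**Figure D2:**
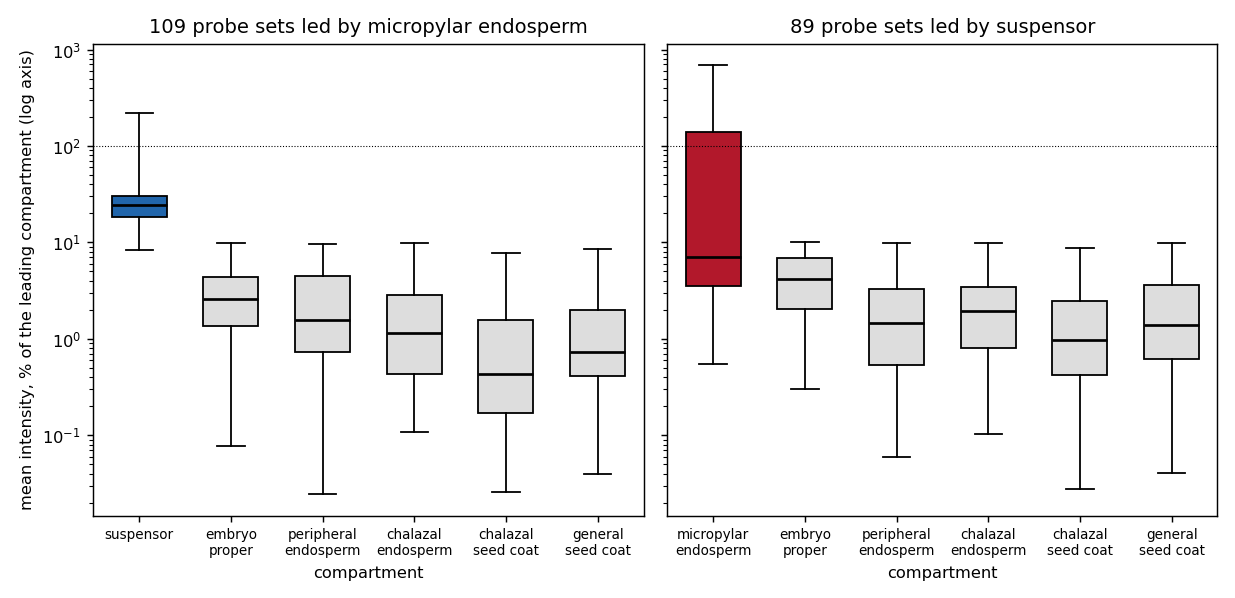
Mean intensity of each compartment as a percentage of the leading compartment, on a log axis, for 109 probe sets led by micropylar endosperm (left) and 89 led by suspensor (right). Boxes span the quartiles with the median as a line, whiskers reach the extremes, and the box of the neighbour of the pair is coloured; suspensor sits at a median of 24.2% in the left panel, above every grey box.

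Signal of other compartments was compared in the 4 arrays with sets chosen without them. For 84 probe sets led at least 10-fold by embryo proper, the median level was 11.9% and 11.0% of the embryo proper level in the suspensor arrays and 3.0% and 2.47% in the micropylar arrays. Of the 84, 37 were called higher in suspensor and 1 lower. For 158 probe sets led by peripheral endosperm the order turned, with 10.2% and 8.68% in suspensor and 27.8% and 34.8% in micropylar endosperm. Of these, 73 were called lower in suspensor and 5 higher. Chalazal endosperm was not compared in choosing this set. The embryo proper set thus read higher in suspensor, and the peripheral endosperm set higher in micropylar endosperm. Within suspensor the medians of the 2 sets were close. A set of 303 probe sets was led by general seed coat, with chalazal seed coat likewise not compared. Its medians were 2.89% and 2.3% in suspensor, and 6.63% and 2.82% in micropylar endosperm replicates 1 and 2. Replicate 1 of micropylar endosperm therefore carried more seed coat signal than the other 3 arrays, and the part of this in the lower calls was not tested.

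Of the 1613 higher probe sets, 741 (45.9%) had their highest mean of all 7 compartments in suspensor, 297 in embryo proper, 224 in general seed coat and 213 in chalazal seed coat. The remaining 74 and 64 were highest in chalazal and peripheral endosperm. Of the 861 lower ones, 429 (49.8%) were highest in micropylar endosperm, 167 in chalazal endosperm and 141 in peripheral endosperm. Among all probe sets tested, 9.12% were highest in suspensor and 14.7% in micropylar endosperm. The maximum of each called group includes the contrast that chose it, and is given as a description.

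The 12 named genes with the largest rise in suspensor differed by 5.45 to 6.23 log2 units, with adjusted p-values between 4e-07 and 1.8e-05. AT2G34700 read 10782 and 13578 on the suspensor arrays and 78.6 and 207 on the micropylar ones, at least 70.1-fold higher. Folds are written "at least" where a dim array did not clear its background limit, which then replaced its value. The AT2G34700 mean was 13482 in embryo proper and 4.61 in peripheral endosperm, so both embryonic compartments were high. LCR68 (PDF2.3), of the plant defensin family of small secreted cysteine-rich proteins, read 31988 and 32303 in suspensor against 664 and 648, which is 49.0-fold. It was above the limit on all 4 arrays, and its next highest mean was 6526 in chalazal seed coat. ATLP-1, a thaumatin-like protein, read 12305 and 7493 against 179 and 200, 50.7-fold higher, and 9223 in embryo proper. AT4G31615 (REM35), of the REM branch of B3-domain transcription factors, read 1651 and 1948 against 4.94 and 3.5. It was at least 12.5-fold higher and at 1866 in embryo proper, and at most 44.2 in the other compartments.

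AT3G62320 stood out in suspensor against all compartments, with 5912 and 5863 against 177 and 54.4 in micropylar endosperm, at least 37.0-fold, and a mean of 215 in embryo proper as the next highest. AT1G31400 followed the same order, with 4061 and 5104 in suspensor, 10.3 and 134 in micropylar endosperm and a mean of 453 in embryo proper. AT4G01610 read 5200 and 3946 against 16.2 and 104, and its mean was higher in chalazal seed coat, at 5161. The others were AT1G21920 (at least 33.8-fold), AT5G09240 (at least 38.3-fold), AT1G65810 (at least 14.8-fold), AT3G08030 (at least 51.1-fold) and AT4G30020 (at least 28.5-fold), which the annotation used here lists by locus only. Of the 12 genes, 9 had their highest mean in suspensor, 2 in embryo proper and 1 in chalazal seed coat. Under every alternative setting and without any single array, all 12 were called higher.

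The 12 named genes with the largest fall differed by 3.1 to 3.66 log2 units, with adjusted p-values of 0.00012 to 0.02. AT1G11070 read 406 and 374 in suspensor and 3000 and 4266 in micropylar endosperm, 9.18-fold lower, with its highest mean, 6430, in peripheral endosperm. AT2G12190 read 159 and 128 against 3090 and 1364, 14.4-fold lower, and 13708 in chalazal endosperm. AT1G60400 read 5.62 and 2.79 against 320 and 363, at least 4.88-fold lower. These 3 genes and AT1G29660 (46.8 and 21.1 against 893 and 672, at least 11.1-fold lower) were called under every alternative. AT1G29660 had a mean of 13347 in general seed coat, and so lay in a tissue outside the pair. AT3G43350, which the annotation lists as a pseudogene, read 583 and 331 against 6068 and 4977, 12.5-fold lower, and no more than 70.1 in any other compartment. Its call was lost with an offset of 1 (adjusted p = 0.15), and signal of related sequences cannot be told from its own on an array.

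The other falls turned more on single arrays. THI2.1, a thionin, a small antimicrobial protein, read 207 and 36.7 in suspensor but 4466 and 291 in micropylar replicates 1 and 2, and its mean in general seed coat was 34448. AT5G01790 (1222 and 183) and AT5G59845 (3087 and 284) had the same uneven micropylar arrays. Without micropylar endosperm replicate 1 the adjusted p-values of these 3 genes were 0.38, 0.17 and 0.27, and without suspensor replicate 2 they were 0.19, 0.09 and 0.1. AT1G33055 read 399 and 341 against 5002 and 2941, and at most 107 in the other compartments. Its adjusted p was 0.097 without suspensor replicate 1, 0.14 without suspensor replicate 2 and 0.16 without micropylar endosperm replicate 1. AT3G60920 (4560 and 4214 in micropylar endosperm against 582 and 389) was lost without suspensor replicate 2, at 0.065. AT3G46370 was 10.1-fold lower at least and AT5G43910 at least 4.71-fold lower. They were lost without suspensor replicate 1, at 0.085 and 0.053. AT3G46370 was also lost without micropylar endosperm replicate 1, at 0.066, and AT5G43910 without suspensor replicate 2, at 0.069. Of the 12, 4 had their highest mean in micropylar endosperm, 4 in chalazal endosperm, 3 in general seed coat and 1 in peripheral endosperm.

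**Figure D3:**
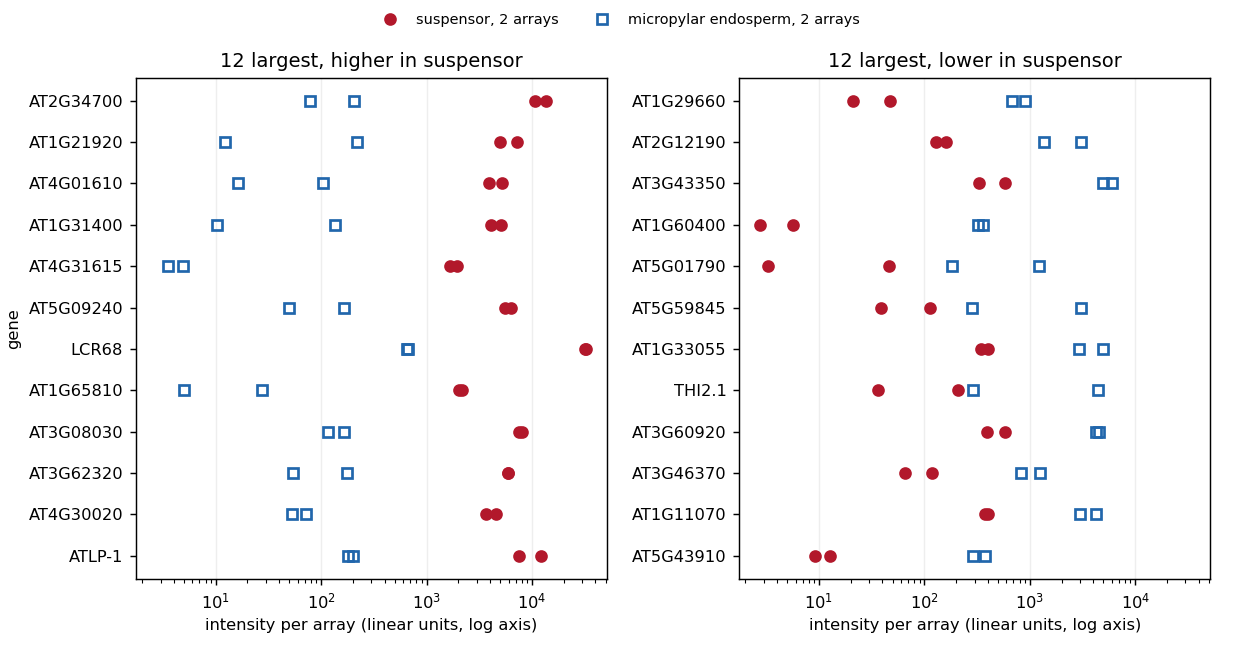
Intensity on each of the 2 suspensor arrays (filled circles) and 2 micropylar endosperm arrays (open squares), on a log axis, for the 12 named genes with the largest rise (left) and the 12 with the largest fall (right) in suspensor. Circles lie to the right of squares for every gene on the left and to the left of them for every gene on the right, and the spread of the squares is widest for AT1G21920, THI2.1 and AT1G31400.

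The labelled tissues were checked against marker genes. None of the 7 suspensor markers listed, among them WOX8 and WOX9, was matched to a probe set with a single gene here, so the suspensor label could not be tested by its own markers. Of 9 micropylar markers only IKU2 was matched, a leucine-rich repeat kinase that promotes endosperm growth. It read 978 and 721 in micropylar endosperm and 117 and 186 in suspensor, 5.68-fold lower (adjusted p = 0.022), and its mean was at most 65.8 elsewhere among the compartments. The micropylar label therefore had the marker, and the suspensor held it at a lower level. The call was lost without suspensor replicate 1 (0.17), suspensor replicate 2 (0.07) or micropylar endosperm replicate 1 (0.13).

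Of 13 endosperm markers 4 were matched. AGL62, a MADS-box factor that holds back endosperm cellularisation, was lower in suspensor, with 201 and 284 against 705 and 1017 (3.55-fold, adjusted p = 0.04). Leaving out any single array ended that call, with adjusted p-values of 0.24 and 0.11 for the suspensor replicates and 0.081 and 0.17 for the micropylar ones. MPC (55.8 and 72.5 against 123 and 300), AGL28 (122 and 29.3 against 74.3 and 170) and AGL23 (94.9 and 52.1 against 185 and 49.4) were not called. In peripheral endosperm their means were 2942 for AGL62, 5806 for MPC, 2127 for AGL28 and 1172 for AGL23. Their summed level was 473 and 438 in suspensor and 1087 and 1537 in micropylar endosperm.

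Of 31 embryo proper markers 5 were matched, with summed levels of 1097 and 1929 in suspensor and 381 and 123 in micropylar endosperm. CR4 (ACR4), a receptor kinase of outer cell layers of the embryo, rose with 494 and 1024 against 12.1 and 3.04, at least 4.97-fold (adjusted p = 0.00018). BBM, an AP2 factor of embryo and root meristem identity, read 437 and 679 against 319 and 29.3 and was not called (adjusted p = 0.12), nor was PHV, a homeodomain factor of upper leaf side identity, at 116 and 193 against 14 and 21.3 (0.058). Without micropylar endosperm replicate 1 BBM passed the threshold, at 0.029. ROXY1, a glutaredoxin known from petal development, had a mean of 2156 in embryo proper but read 15.5 and 25.8 in suspensor, under the background limit, and YAB3 was under the limit on all 4 arrays. Of 17 seed coat markers BAN, DFR and INO were matched and none was called, with summed levels of 891 and 870 in suspensor and 2518 and 1607 in micropylar endosperm. BAN, which acts in tannin synthesis in the seed coat, read 462 in micropylar replicate 1 and 94.3 in replicate 2. Of 8 pollen markers 2 were matched, with summed levels of 179 and 48.5 in suspensor and 277 and 22.6 in micropylar endosperm, and neither was called.

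Gene groups were then read by function. Lists were matched on gene symbols, and some also on synonyms, so members that the annotation lists by locus only can be missing. Of 48 lists 27 had at least 5 matched probe sets, 16 had 1 to 4 and 5 had none, and counts below are set against the 7.09% higher and 3.79% lower calls over all probe sets. Receptor kinases and peptides of embryo signalling had 2 higher, 1 lower and 7 uncalled members among 10. Beside CR4, GSO1, a receptor kinase needed for an intact embryonic cuticle, was higher in suspensor with 800 and 943 against 6.15 and 100, at least 6.06-fold (adjusted p = 0.0012, and 0.052 without micropylar endosperm replicate 1). Both genes were also high in embryo proper, with means of 2910 and 1122. EMS1, a receptor kinase known from anther cell fate, was lower, with 44.6 and 32.3 against 397 and 194 (at least 3.98-fold, adjusted p = 0.034). It was lost without suspensor replicates 1 and 2 (0.12 and 0.19) and without micropylar endosperm replicate 1 (0.26).

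Among 28 small secreted cysteine-rich proteins 2 were higher and 2 lower, shares of 7.14% each. Beside LCR68, the higher one was RALFL34, a peptide of the RALF family that acts with cell wall receptor kinases. It read 2311 and 3470 in suspensor against 190 and 22.6, at least 17.2-fold (adjusted p = 0.00016), and its next highest mean was 1515 in embryo proper. LCR80 ran the other way in level, with 3160 and 1094 in micropylar endosperm against 511 and 395, and was not called (adjusted p = 0.1). The lower calls were THI2.1 and LCR24, the latter named here after its values were seen. LCR24 read 35878 and 28086 in suspensor against 143187 and 64062 (3.02-fold lower, adjusted p = 0.028), and 0.39 under quantile normalization. It was lost without suspensor replicate 1 (0.092), suspensor replicate 2 (0.21) or micropylar endosperm replicate 1 (0.37), and with either of the latter 2 arrays left out no lower call was left in the list.

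Cell wall loosening was represented by 18 expansins, of which 3 were higher and 1 lower. EXPA9 was the clearest, with 2087 and 2305 in suspensor against 32.5 and 91.5, at least 15.3-fold (adjusted p = 3.6e-05). Its mean was 245 in embryo proper and at most 70 in the other compartments. EXPA4 read 812 and 788 against 70 and 70 (at least 5.59-fold, adjusted p = 0.0062). It was lost without either suspensor array, at 0.057 each. EXPA15, with 411 and 384 against 116 and 9.27, was lost without suspensor replicate 1 (0.17), suspensor replicate 2 (0.16) or micropylar endosperm replicate 2 (0.29) and under both other scalings (0.065 and 0.056). EXPA20, at 221 and 114 against 15 and 48.1, was not called (adjusted p = 0.19). The lower member was EXPA21, named here after its values were seen. It read 83456 and 61435 in micropylar endosperm and 29464 and 23377 in suspensor, 2.73-fold lower (adjusted p = 0.03), with a mean of 3435 in embryo proper and at most 311 in the other compartments. The adjusted p was 0.51 under quantile normalization, and 0.1, 0.23 and 0.22 without suspensor replicate 1, suspensor replicate 2 and micropylar endosperm replicate 1.

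Of 22 TBL proteins, which add acetyl groups to wall polysaccharides, 2 were higher, 2 lower and 18 uncalled, with a median log2 difference of -0.77. TBL45 rose with 2363 and 2003 in suspensor against 150 and 40.7, at least 14.9-fold (adjusted p = 7.1e-05), and its next highest mean was 1357 in general seed coat. The lower calls, TBL41 and TBL42, are named here after their values were seen. TBL41 read 14068 and 8591 in suspensor against 49535 and 26184 (3.28-fold lower, adjusted p = 0.037), and TBL42 4156 and 4346 against 20720 and 12642 (3.81-fold lower, 0.039). Neither was called under quantile normalization (0.24 and 0.079) or with array weights (0.062 and 0.056), nor without suspensor replicate 1 (0.074 and 0.18), suspensor replicate 2 (0.3 and 0.17) or micropylar endosperm replicate 1 (0.33 and 0.28). TBL42 was also lost without micropylar endosperm replicate 2 (0.055). At a common 75th percentile the list had 5 lower calls. TBL15 read 26053 and 27650 in micropylar endosperm against 7310 and 6717 (3.83-fold, adjusted p = 0.062), and so missed the threshold although its arrays did not overlap. It passed with only the 4 arrays in the fit (0.0077). Among 9 xyloglucan enzymes none was called. Their median log2 difference was -0.43.

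Sugar transporters and invertases had 2 higher, 2 lower and 16 uncalled members among 20, and all 4 calls fell on SWEET transporters, which let sugars pass across membranes along their gradient. SWEET9 read 973 and 2274 in suspensor and 41.3 and 69.1 in micropylar endosperm, at least 10.4-fold higher (adjusted p = 0.00012). Its next highest mean was 372 in embryo proper. SWEET7 read 868 and 1105 against 27.1 and 129, at least 6.84-fold higher (adjusted p = 0.00088), with 307 in general seed coat. Both stayed called without any single array.

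SWEET8 ran the other way, with 17852 and 19240 in micropylar endosperm against 5673 and 5065 in suspensor (log2 difference -1.78 ± 0.43 SE, 3.46-fold lower, adjusted p = 0.0064). Its means were 5086 in peripheral and 5493 in chalazal endosperm, close to the suspensor level, and 313 in embryo proper. The call was lost without suspensor replicate 2, at 0.077. SWEET16 was called lower (adjusted p = 0.024), but neither group was above the background limit, at 5.01 and 15.9 against 141 and 129, and its call was lost without any single array (0.059 to 0.18). SWEET members were thus called in both directions between the neighbouring tissues, and the lower calls were the less stable ones.

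Transcription factors of the bHLH and bZIP families had 3 higher, 1 lower and 25 uncalled members among 29, and the lower call was lost without suspensor replicate 1. SPT, a bHLH factor known from carpel and seedling growth, read 1026 and 1599 in suspensor against 7.53 and 3.28, at least 8.95-fold higher (adjusted p = 4.9e-06). LHW, which promotes vascular cell divisions in the embryo, read 666 and 735 against 9.41 and 15.7, at least 4.89-fold (adjusted p = 1.7e-05). In embryo proper their means were 1635 and 1579. bHLH115, a regulator of iron deficiency responses, read 1883 and 2352 against 248 and 330, 7.36-fold higher (adjusted p = 0.00042), and unlike them it was low in embryo proper, at 242. All 3 were called without any single array.

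MADS-box factors had 42 probe sets of 40 genes, with a median log2 difference of -0.39. For 24 of these probe sets no suspensor or micropylar array was above its background limit. The list gave no higher and 5 lower calls, that is 11.9% lower. Beside AGL62, these were AGL96, AGL48, AGL41 and AGL18. AGL96 read 13460 and 13492 in micropylar endosperm against 3520 and 3915 (3.63-fold lower, adjusted p = 0.0093). AGL48 read 2389 and 2004 against 284 and 306 (7.42-fold, 0.015) and at most 91.9 in the compartments outside the pair. AGL41 read 579 and 1304 against 197 and 67 (7.55-fold, 0.011), and its highest mean, 5094, was in chalazal endosperm. AGL18, known to delay flowering, read 8337 and 6666 against 1576 and 2041 (4.16-fold, 0.0078), with 9598 in chalazal seed coat. Suspensor was lower on both arrays for each of them. Leaving out suspensor replicate 1, suspensor replicate 2 or micropylar endosperm replicate 1 left 1 call in the list each time, and leaving out micropylar endosperm replicate 2 left 4. With those 3 arrays left out in turn the adjusted p was 0.061 to 0.093 for AGL96 and 0.092 to 0.099 for AGL48. AGL18 was lost without suspensor replicate 1 (0.096) or micropylar endosperm replicate 1 (0.082), and AGL41 without replicate 2 of suspensor (0.19) or of micropylar endosperm (0.11). An offset of 1 also left 1 call.

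Hormone genes moved singly. Among 15 auxin genes IAA30, of the Aux/IAA repressors, was the only call, with 815 and 881 in suspensor against 68.1 and 68.6, at least 5.92-fold higher (adjusted p = 0.0012). Its mean was 456 in embryo proper and at most 67.8 in the other compartments outside the pair. GID1A, a gibberellin receptor, was higher among 4 gibberellin genes, with 622 and 675 against 161 and 29.2, at least 4.28-fold (adjusted p = 0.0036, and 0.081 without micropylar endosperm replicate 2). It was also at 1199 in peripheral endosperm and 1593 in general seed coat. UGT76C2, which inactivates cytokinins by attaching glucose, read 1130 and 1441 against 150 and 78.4, at least 8.72-fold higher (adjusted p = 0.0017), with 633 in embryo proper.

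Autophagy and cell death genes had 2 higher and 12 uncalled members among 14. Both were ATG8 proteins, the ubiquitin-like proteins that coat autophagosomes. ATG8B read 865 and 829 in suspensor against 64.4 and 40.4, at least 5.91-fold higher (adjusted p = 7.4e-05). ATG8G read 2188 and 2281 against 330 and 370, 6.4-fold higher (adjusted p = 0.00098). Both were called without any single array. The vacuolar processing enzymes, proteases tied to plant cell death, were not called, with ALPHA-VPE at 233 and 247 against 716 and 1151 (adjusted p = 0.12) and BETA-VPE at 162 and 294 against 20.5 and 127 (0.21). ATG8B was highest in chalazal seed coat, at 2610. Of the 14 members, 5 had a log2 difference below 0, among them 2 ATG8 genes named here after their values were seen. ATG8F had means of 4413 in suspensor and 8365 in micropylar endosperm, and APG8A of 1259 and 2910. Neither was called (adjusted p = 0.064 and 0.065). The list had 2 lower calls with an offset 4 times as large, at a common 75th percentile or without dim probe sets.

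Proteases of other families were called in both directions. Genes that the annotation lists by locus only, such as AT4G30020 among the largest rises, could not be matched to a family here. Among the 9 subtilases matched by symbol, which are secreted serine proteases, 2 were called lower and none higher. The log2 difference was below 0 for 7 of the 9. SBT3.12 was higher without a call, with means of 1279 in suspensor and 337 in micropylar endosperm (adjusted p = 0.057). SBT5.4 read 9275 and 9444 in micropylar endosperm against 2288 and 1848 (4.55-fold, adjusted p = 0.011), but the adjusted p was 0.052 to 0.12 without any single array. ARA12 had 487 and 180 against 14.7 and 109 (at least 3.08-fold, 0.032) and was lost without suspensor replicate 1 (0.39) and micropylar endosperm replicate 1 (0.33). Of 29 serine carboxypeptidase-like genes 1 was higher and 3 lower, with 1, 2 and 0 lower without suspensor replicate 1, suspensor replicate 2 and micropylar endosperm replicate 1. The higher one, scpl29, read 885 and 1180 against 25.9 and 93.7 (at least 7.13-fold, adjusted p = 0.00027), and scpl20 was lower at 117 and 144 against 2042 and 531 (8.04-fold, 0.0017). scpl20 had a mean of 17606 in general seed coat and was lost without micropylar endosperm replicate 1, at 0.098.

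Plastid-encoded genes had the largest share of lower calls among the lists with at least 5 probe sets. Of 53, 32 (60.4%) were lower in suspensor, none was higher and 21 were not called, and the median log2 difference was -1.41. psbN, which aids assembly of photosystem II, read 1277 and 1757 in suspensor against 8035 and 7744 (log2 difference -2.37 ± 0.39 SE, 5.27-fold lower, adjusted p = 0.00016). ndhJ, of the plastid NADH dehydrogenase-like complex, read 370 and 438 against 2034 and 1935, 4.93-fold lower (adjusted p = 0.001). psbT was 7.08-fold lower, at 175 and 68.7 against 755 and 801, and psbL 4.45-fold lower, at 526 and 432 against 3044 and 1477. psbT and psbL, both small subunits of photosystem II, were lost without suspensor replicate 2, at 0.084 and 0.056, and psbL also without micropylar endosperm replicate 1, at 0.098.

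The direction of the plastid list was the same without any single array, with 14 to 28 lower calls and the fewest without suspensor replicate 2. Without an intensity trend 16 were lower, and with only the 4 arrays in the fit 22. Without micropylar endosperm replicate 1 they were 21. Its median was -1.0 under quantile normalization and -1.64 at a common 75th percentile. In embryo proper against peripheral endosperm 47 of the 53 were lower. Of 16 nuclear photosynthesis genes 6 were lower and 1 higher, with a median of -1.36. The lower calls were 3 without suspensor replicate 1, 2 without suspensor replicate 2 and 4 without micropylar endosperm replicate 1. PRK and SBPASE, enzymes of the Calvin cycle, read 540 and 879 against 2865 and 4322 (5.1-fold lower, adjusted p = 0.004) and 536 and 315 against 1984 and 1541 (4.25-fold lower, 0.0014). They were lost without suspensor replicate 1 (0.08) and suspensor replicate 2 (0.055) respectively. In peripheral endosperm their means were 26881 and 16205. LHCB4.2 and LHCB4.3, antenna proteins of photosystem II, were called in opposite directions: LHCB4.2 read 255 and 235 against 1287 and 1044, and LHCB4.3 read 1194 and 1007 against 241 and 309. LHCB4.3 lost its call without any single array (adjusted p 0.054 to 0.17) and under both other scalings (0.059 and 0.055), and LHCB4.2 without suspensor replicates 1 and 2 or micropylar endosperm replicate 1 (0.1 to 0.13).

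**Figure D4:**
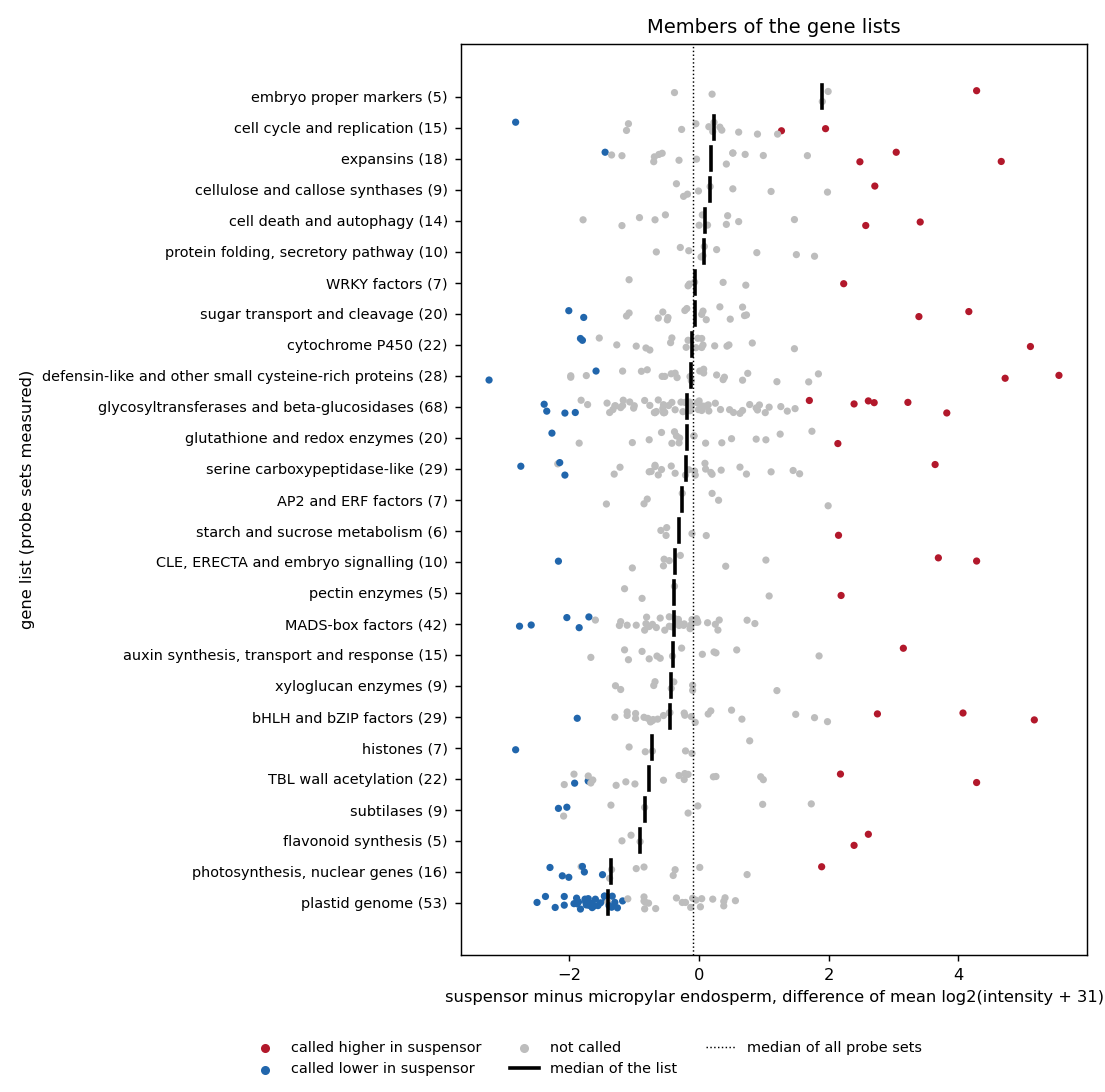
Suspensor minus micropylar endosperm, as the difference of mean log2(intensity + 31), for each member of the 27 lists with at least 5 probe sets, ordered by the median of the list (black bar). Calls higher in suspensor are red and lower ones blue; the plastid genome and nuclear photosynthesis lists have medians of -1.41 and -1.36, against -0.09 for all probe sets (dotted line).

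The pair was set beside the other embryo and endosperm pair of the series, embryo proper against peripheral endosperm, which shares no array with it. That pair had 1703 higher (7.49%) and 1566 lower (6.88%) calls. Of the 1703 probe sets higher in embryo proper, 584 (34.3%) were also higher in suspensor, 36 were lower and 74.4% had a log2 difference above 0, against 45.8% of all probe sets. Of the 1566 lower in embryo proper, 323 (20.6%) were lower in suspensor and 62 higher. The shared calls were 36.2% of the probe sets higher in suspensor and 37.5% of the lower ones. Across all probe sets the log2 differences of the pairs correlated at 0.357, with probe sets that are not independent replicates. All 12 genes with the largest rise in suspensor were also higher in embryo proper than in peripheral endosperm, and 5 of the 12 with the largest fall were lower. Without embryo proper replicate 2 or peripheral endosperm replicate 2 the other pair had 2125 and 2007 calls in place of 3269.

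The difference of the 2 steps (suspensor minus micropylar endosperm, less embryo proper minus peripheral endosperm) passed the threshold for 826 probe sets on the positive side (3.63%) and 541 on the negative side (2.38%). The total of 1367 was 665, 680 and 796 without suspensor replicate 1, suspensor replicate 2 and micropylar endosperm replicate 1, and 799 and 791 without replicate 2 of embryo proper or of peripheral endosperm. AT4G33280 had the clearest suspensor level on the positive side, with 1479 and 1415 against 12.6 and 14.6 in micropylar endosperm, a mean of 87.3 in embryo proper and 295 in peripheral endosperm (difference 6.78 ± 0.96 SE, adjusted p = 7.2e-05). AT1G53690 was alike, with 3769 and 4928 against 86.3 and 238, and 125 in embryo proper (6.52, 0.00022). AT2G22620 read 1622 and 2198 against 13.4 and 141, while its means were 54.1 in embryo proper and 484 in peripheral endosperm (6.91, 3.8e-05). These 3 were high in suspensor and low in the embryo proper, although AT2G22620 also had a mean of 1529 in general seed coat. For AT3G59480 (3056 and 5259 against 1126 and 1087) and UGT87A2 (401 and 409 against 19.5 and 57.8) the difference of 6.57 and 6.31 rested also on peripheral endosperm, at 1314 and 5900 against 19.4 and 492 in embryo proper.

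On the negative side lay genes of the embryo proper that suspensor held at low level. TRM28, of a family that recruits proteins to microtubules, had a mean of 3670 in embryo proper and 25.8 in peripheral endosperm, but read 55.3 and 84.4 in suspensor against 195 and 434 (difference -7.83 ± 1.04 SE, adjusted p = 4.9e-05). SBT1.3, a subtilase, stood at 4521 in embryo proper, 9906 in general seed coat and 130 and 124 in suspensor against 529 and 262 (-6.7, 4.9e-05). AT4G16240 stood at 7437 in embryo proper and at 323 and 124 in suspensor against 495 and 360 (-6.2, 2.9e-05). None of these 3 was called between suspensor and micropylar endosperm.

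AT3G12190 and AT5G40680 had another pattern. AT3G12190 read 45104 and 20132 in micropylar endosperm, 5872 and 3530 in suspensor and a mean of 844 in embryo proper, with at most 105 in the other compartments (difference -5.97, adjusted p = 0.00035). AT5G40680 read 16844 and 19668 in micropylar endosperm, 4490 and 3126 in suspensor and 1000 in embryo proper, with at most 118 in the other compartments and 2089 in whole seed (-5.96, 5.8e-05). Both genes therefore stepped down from micropylar endosperm through suspensor to embryo proper. Between suspensor and micropylar endosperm they were 6.62-fold and 4.86-fold lower (adjusted p = 0.0093 and 0.0092). The first was lost without suspensor replicate 2 or micropylar endosperm replicate 1, at 0.14 and 0.17. The second was lost without suspensor replicate 2 (0.13) and both micropylar replicates (0.051 and 0.057).

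**Figure D5:**
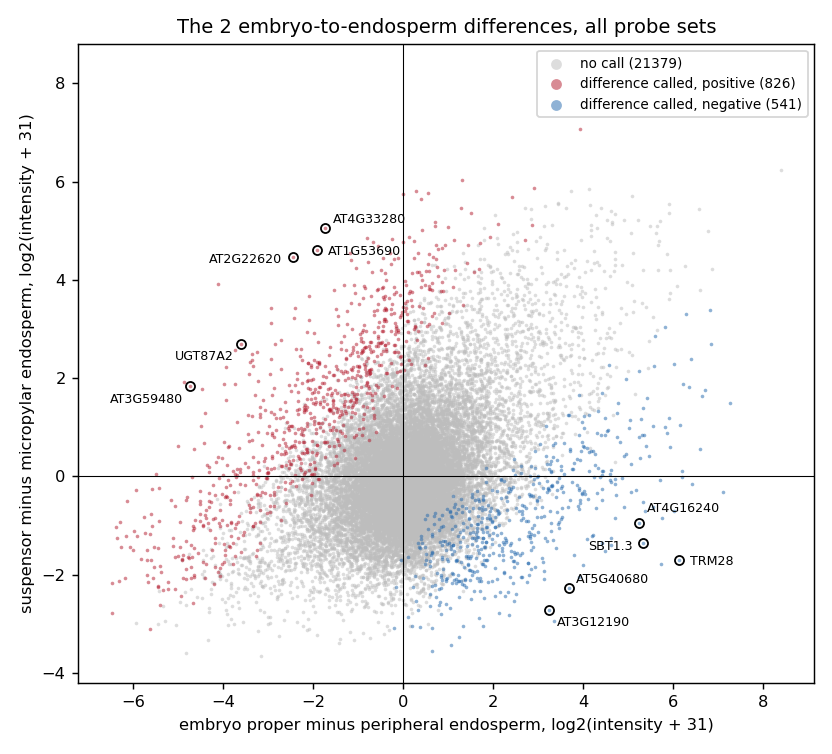
Suspensor minus micropylar endosperm (vertical) against embryo proper minus peripheral endosperm (horizontal), each as a difference of mean log2(intensity + 31), for all 22746 probe sets. The 826 and 541 probe sets whose differences are themselves called different are red and blue, and circles mark the 5 named genes on each side; AT4G33280 and AT1G53690 are high at upper left and TRM28 lies at lower right.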

How the data were processed

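Seed compartments of Arabidopsis were profiled on 17 ATH1 arrays, 1 colour each. The deposited values are linear intensities per probe set, scaled by the authors to a common trimmed mean. The submitters' processing notes name GCOS, with its version and algorithm not given in the sources used here. The genome build is likewise not given, so no coordinates are printed. The depth has no counterpart on arrays, where 2 arrays a group limit the precision.

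The 64 control probe sets were left out, 31 was added and log2 was taken of the deposited intensities. Each of the remaining 22746 probe sets was fitted with limma 3.58.1 (lmFit and eBayes with an intensity trend, R 4.3.3) over all 8 groups, which gives 9 residual degrees of freedom. Suspensor minus micropylar endosperm was the contrast, p-values were adjusted by Benjamini-Hochberg across the array, and a call is an adjusted p under 0.05. Embryo proper minus peripheral endosperm and the difference of both contrasts came from the same fit. Adjusted p-values are from this limma fit unless an alternative is named, in which case limma was refitted with it. Tables and figures were made with Python 3.11.15, pandas 2.3.3 and numpy 2.4.6.

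The platform annotation gave 1 gene for 13513 probe sets, several for 503 and none here for 8730. Of the 13513, 13436 were matched to RefSeq genes of assembly TAIR10.1, which also gave current symbols. Named genes were the 12 largest called differences per direction with arrays that did not overlap, a brighter group above the median of all values and 1 gene. To these came up to 4 members of largest difference per gene list, all matched micropylar markers, and the 5 largest differences of both contrasts per direction. The comparison and the gene lists were chosen with earlier results of these data known. Folds are ratios of geometric means of the intensities, without the offset.

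Alternatives were an offset of 1 or 4 times as large, quantile normalization, a common 75th percentile, array weights, no intensity trend, leaving out dim probe sets, only the arrays compared, the replicate number as a block, and each array left out. Data were simulated for suspensor against micropylar endosperm, with 22746 probe sets and 50 changed at each size. Of those changed, 6% were recovered at 1 log2 unit, 30% at 2, 68% at 3 and 92% at 4. Of 103 calls, 5 were false. The changed probe sets were drawn from those with a mean above the median, and all others had the same mean in every group. The real comparison has more calls, many of them on dim arrays, so these rates are not its sensitivity. Same-numbered samples were checked for pairing before calls were compared.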

Additional observations from a re-analysis of the deposited data

Results flagged for a closer look

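These results differ between the embryo and endosperm pairs by the limma test of the difference itself, suspensor minus micropylar endosperm less embryo proper minus peripheral endosperm. Of 22746 probe sets, 826 differed on the positive side and 541 on the negative side. The largest positive differences among named genes were 6.91 log2 units for AT2G22620, 6.78 for AT4G33280, 6.57 for AT3G59480, 6.52 for AT1G53690 and 6.31 for UGT87A2. On the negative side they were -7.83 for TRM28, -6.7 for SBT1.3, -6.2 for AT4G16240, -5.97 for AT3G12190 and -5.96 for AT5G40680. With 2 or 3 arrays a group, no group was large enough for a check for single outlying arrays.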

How the results depend on the processing

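Of the 2474 calls between suspensor and micropylar endosperm, an offset of 1 gave 1646, of which 1585 were among the calls as reported, and leaving out single arrays gave 1041 to 2402. Embryo proper against peripheral endosperm had 2112 calls with only its own arrays in the fit and 2007 to 2657 without single arrays, against 3269. The difference of both pairs had 778 with an offset of 1 and 665 to 1585 without single arrays, against 1367. At a common 75th percentile that total of 1340 was split into 660 positive and 680 negative calls. The cause of these changes was not tested, beyond fewer arrays in the fits that leave arrays out. Other settings kept each count within 1.5 times. The counts of named genes that follow leave out the 4 lower glycosyltransferases and beta-glucosidases. Of 79 called genes named here, 38 were called under every alternative, among them 32 of the 41 higher ones, and 27 were lost with an offset of 1.

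Some genes without a call changed sign. YAB3 was at -0.03 at a common 75th percentile and ran from -0.2 to 0.6 without single arrays. Without single arrays ROXY1 ran from -0.85 to 0.08, AGL28 from -1.27 to 0.07, AGL23 from -1.08 to 0.35, BAN from -1.89 to 0.08 and INO from -1.54 to 0.44, where 0.08 was INO without suspensor replicate 2.

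With the replicate number as a block, 2543 probe sets were called in place of 2474. Deviations of same-numbered suspensor and micropylar endosperm samples correlated at 0.092. One correlation across probe sets cannot show whether samples of the same number share a source. The arrays have 2 samples a group, and fitted differences of genes under the background limit depend on the offset.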

Other observations

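Enzymes of small-molecule metabolism held further differences between suspensor and micropylar endosperm. CYP71B5, a cytochrome P450, read 3382 and 3145 in suspensor against 30.9 and 116, at least 22.8-fold higher (limma adjusted p = 1.9e-05). Genes that the annotation lists by locus only, such as AT2G12190 among the largest falls, could not be matched to a family here. Of the 22 P450 probe sets matched by symbol, 1 was higher and 2 lower. The lower ones were lost without suspensor replicate 1, suspensor replicate 2 or micropylar endosperm replicate 1. UGT73B4, a glycosyltransferase of stress responses, read 1017 and 997 against 7.76 and 108, at least 7.03-fold higher (adjusted p = 0.00066), and its next highest mean among the compartments was 123 in embryo proper. Of 68 glycosyltransferases and beta-glucosidases 6 were higher and 4 lower, shares of 8.82% and 5.88% against 7.09% and 3.79% of all probe sets. The 4 lower calls, named here after their values were seen, were UGT84B1, UGT84B2, BGLU44 and BGLU15. Their means were 838, 1278, 245 and 307 in suspensor against 4529, 6659, 1125 and 1207 in micropylar endosperm (adjusted p = 0.0063, 0.026, 0.0036 and 0.0015). The higher calls were 2 without either suspensor array, 4 without micropylar endosperm replicate 1 and 3 without replicate 2. UGT78D2, which attaches glucose to flavonoids, read 1363 and 1052 against 251 and 164 (5.9-fold, adjusted p = 0.013). Its adjusted p was 0.12, 0.067 and 0.079 without suspensor replicate 1, suspensor replicate 2 and micropylar endosperm replicate 2.

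PAP20, of the purple acid phosphatase family, read 10640 and 11611 in suspensor against 208 and 585, 31.8-fold higher (adjusted p = 2.5e-06). Its highest mean was 18068 in chalazal endosperm, and embryo proper had 25.1, so it was high at separate sites of the seed. GRXC2, a glutaredoxin, read 6518 and 8253 against 1430 and 1882 (4.47-fold higher, adjusted p = 0.00022). HTR12, the histone H3 of centromeres, ran the other way with 7.65 and 291 against 992 and 585, at least 4.86-fold lower (adjusted p = 0.0084). That call was lost without suspensor replicate 1 (0.35) or micropylar endosperm replicate 1 (0.11).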
